A study of Mus musculus with 6 samples.

Results

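The genes described here encode the synaptic vesicle and exocytosis machinery, chosen by name: every array probe set whose only gene symbol belongs to the synaptotagmin, synapsin, VAMP, syntaxin, syntaxin-binding, SNAP, complexin, Rab3, SV2, synaptophysin, synaptogyrin, Unc13, Rims, Cadps, Doc2, Nsf, Nap or rabphilin families. The choice used no measured value, and it took in 84 of 18193 genes, read by 195 of 45101 probe sets. In this study, Affymetrix mouse arrays measured RNA after translating ribosome affinity purification (TRAP), which pulls tagged ribosomes and their mRNA out of a tissue lysate. All mice carried the bacterial artificial chromosome transgene of line Slc6a4 JD60 on a mixed FVB and c57/bl6j background, in which the Slc6a4 (serotonin transporter) promoter directs the tag to serotonin neurons. The IP group was 3 samples of the ribosome-bound RNA, and the unbound group was 3 samples of what the pull-down did not take up, used as a measure of the tissue as a whole. Each sample pooled 5 adult mice of both sexes, 6 to 12 weeks old, and the tissue was midbrain and brainstem without cerebellum. The groups thus differ both in cell type and in ribosome binding, and the design cannot tell these apart.

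A synaptic vesicle fuses when a vesicle SNARE (a VAMP) zips up with target SNAREs (a syntaxin and SNAP-25) on the plasma membrane. Munc13 proteins help set up this assembly, complexins hold it, and synaptotagmins couple it to calcium. Rab3 and RIM proteins tether vesicles at the active zone, synapsins cluster them, and the ATPase NSF with its SNAP adaptors takes spent SNARE complexes apart. Most of these proteins come as paralogues that differ between neuron types. Serotonin neurons use the same core machinery, releasing transmitter both at synapses and from cell bodies and varicosities, from small vesicles and large dense-core vesicles. Because unbound RNA holds every neuron and glial cell of the tissue, a higher or lower value in IP compares serotonin neurons with this mixture, in which fewer cells of a type and less RNA per cell cannot be told apart.

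Values are log2 expression, with each gene read by its brightest probe set and the IP arrays shifted to match the unbound arrays on biotinylated control probe sets. Genes reaching a log2 value of 5, taken as the detection limit, on 3 or more of the 6 arrays were tested. It was called higher or lower where limma gave an adjusted p under 0.05 and a change of at least 2-fold. Slc6a4, the gene whose promoter was used, read 14.33, 14.10 and 14.18 in IP and 8.99, 9.13 and 9.04 in unbound RNA, and all 7 tested serotonin neuron markers were higher in IP. Arrays correlated at 0.996 to 0.999 within IP and 0.994 to 0.997 within unbound RNA. Markers of glia, vessels and other neuron types that were tested were lower, except Aif1 of the microglial list, which was higher. Examples were Gfap of astrocytes (6.17 in IP and 10.66 unbound), Mbp of oligodendrocytes (13.63 and 15.30) and Csf1r of microglia (6.06 and 9.84). Summed over each list, astrocyte markers spanned 11.25 to 11.43 on IP arrays and 14.06 to 14.63 on unbound arrays, and those of GABAergic and glycinergic neurons 11.50 to 12.01 and 14.17 to 14.48. The pan-neuronal list had 2 of 8 genes higher and 3 lower. The part of these cells in the results below was not tested.

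Of the 84 genes, 70 were tested, 9 were higher in IP, 33 were lower and 28 were not called. The 9 were the SNARE genes Vamp2 and Stx1a, the complexin gene Cplx2, the synaptotagmin-family genes Syt5, Syt9 and Syt17, the vesicle gene Syngr3, and the active-zone genes Rab3b and Rims3, with changes between 2.24-fold and 5.67-fold. Over all 10581 tested genes, 10.4% were called higher and 41.1% lower, against 12.9% and 47.1% of the 70. Thus the counts lay near the background, and what follows concerns which members moved. Their median log2 change was -0.84, beside -0.65 for all tested genes. For 6 of the 33 lower genes (Vamp8, Snap29, Stx2, Stxbp4, Syt12 and Unc13b) every IP array lay below the limit, so they could pass the filter only by being higher in unbound RNA. Of the 64 genes that reached the limit in both groups, 9 (14.1%) were higher and 27 (42.2%) lower, beside 10.5% and 33.4% of all 8985 such genes. All 3 IP arrays lay above all 3 unbound arrays for 18 of the 70 and below them for 45, which compares with 23.9% and 59.1% of all tested genes. The remaining 14 genes were below the limit on every array.

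**Figure D1:**
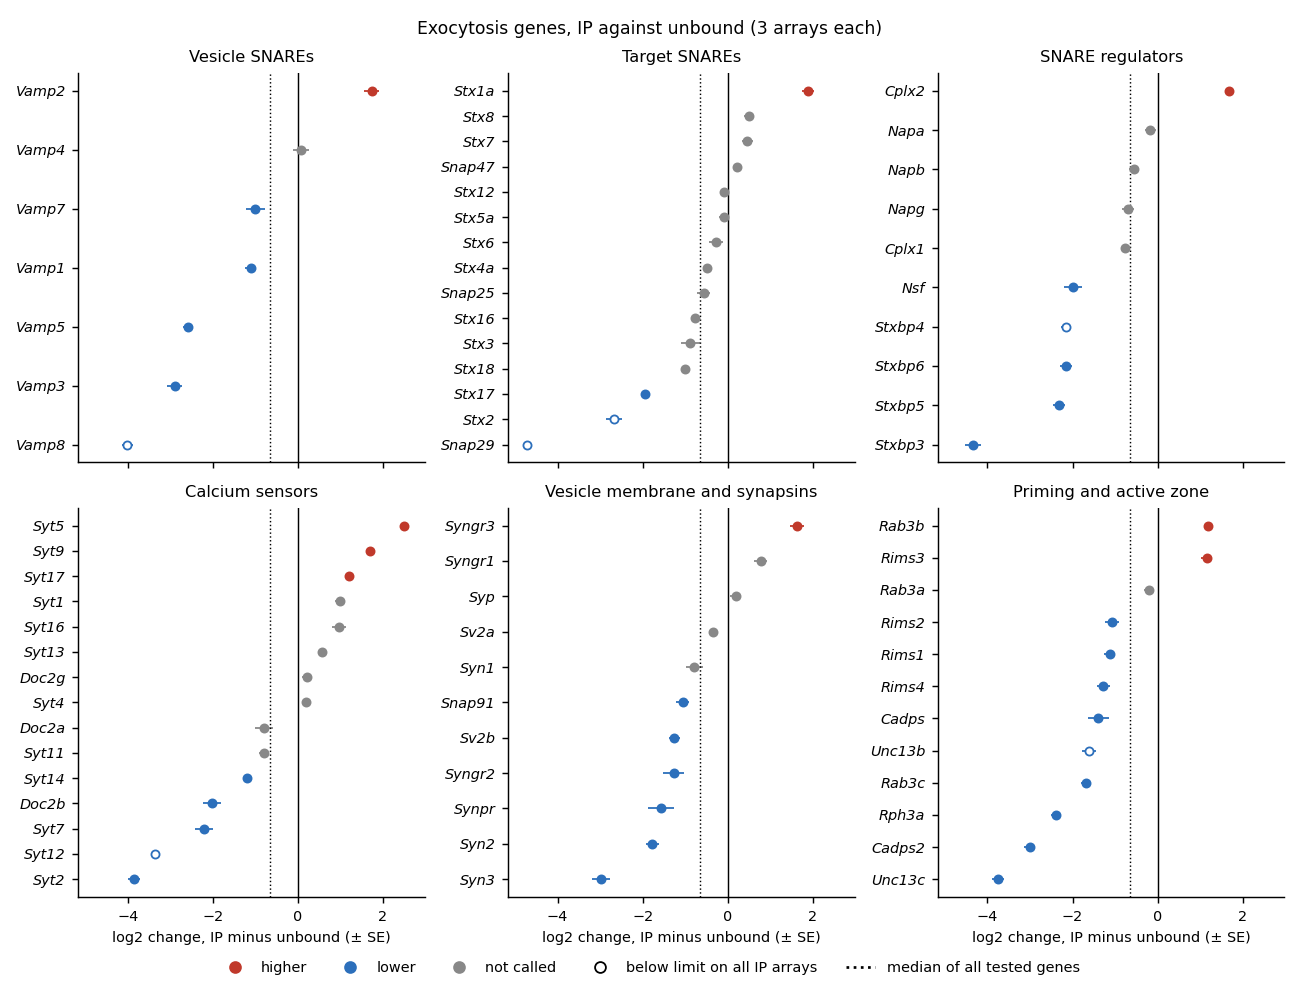
Log2 change (IP minus unbound, points, with the standard error as bars, 3 arrays in each group) of the 70 tested genes by role. Red points were called higher, blue lower and grey not called, open points were below the detection limit on all IP arrays, and the dotted line marks the median of all tested genes at -0.65; every panel holds at least 1 red point, and the panel of priming and active-zone genes holds 2 red, 9 blue and 1 grey.

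How many members are called depends on the scaling between the groups, which the authors normalised separately. Without any scaling 12 were higher and 27 lower, quantile normalisation gave 14 and 23, and centring on the median of expressed probe sets gave 15 and 20. Centring on the median of all probe sets, most of them below the limit, gave 20 and 15. The same 9 genes were called higher under each of these scalings. Genes that the median of all probe sets added to the higher calls included Snap47, Stx7, Stx8, Syp, Syt4 and Vamp4. With the poly-A spike controls as the scale, which adds -2.91 to IP, 66 of the 70 were lower and 0 higher in limma, and since every change was then below 0, none was higher at any p. Slc6a4 was still called higher there, at 2.47. Of the 33 lower calls, 6 were lost without scaling (Rims1, Rims2, Snap91, Syt14, Vamp1 and Vamp7). Quantile normalisation lost Rims1, Rims2, Rims4, Stxbp4, Sv2b, Syngr2, Synpr, Syt14, Unc13b and Vamp7. Both median scalings lost Cadps, Rab3c, Rims1, Rims2, Rims4, Snap91, Sv2b, Syngr2, Synpr, Syt14, Unc13b, Vamp1 and Vamp7, and the median of all probe sets also lost Doc2b, Nsf, Stx17 and Syn2. Reading genes by the mean of their probe sets lost Rab3c, Rims2, Snap91, Syn2 and Vamp7. The directions below are those of the biotin scaling.

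**Figure D2:**
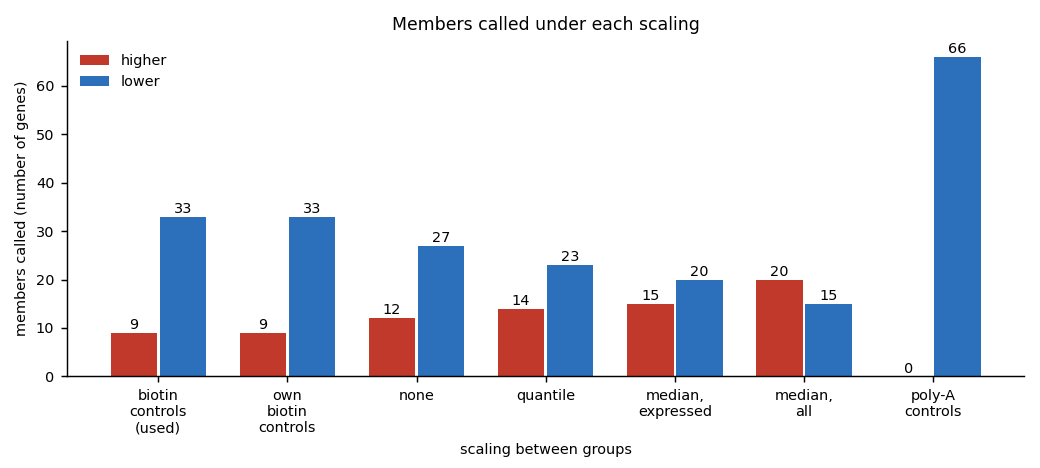
Number of tested genes of the exocytosis machinery called higher (red bars) and lower (blue bars) in IP under 7 scalings between the groups. The balance moves from 9 and 33 under the biotin controls to 20 and 15 under the median of all probe sets and to 0 and 66 under the poly-A controls.

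Among vesicle SNAREs, Vamp2 rose and most others fell. Vamp2 encodes synaptobrevin-2, the main vesicle SNARE of forebrain synapses. It read 13.28, 12.87 and 12.77 in IP and 11.36, 11.05 and 11.31 in unbound RNA, so every IP array lay above every unbound array (3.32-fold, limma log2 change 1.73 ± 0.17 SE, adjusted p = 1.33e-04). Its second probe set rose by 2.42. Vamp1, the synaptobrevin paralogue abundant in spinal cord and brainstem, went the other way, with 11.65, 11.50 and 11.41 in IP and 12.42, 12.66 and 12.80 in unbound RNA (2.16-fold lower, adjusted p = 2.90e-04). The call for Vamp1 was lost without scaling and with both median scalings. The VAMPs of other membrane routes were lower too. Vamp3 (cellubrevin), the widely expressed VAMP of recycling endosomes, fell from 13.35 ± 0.24 to 10.45 ± 0.26 (SD, n = 3), which is 7.45-fold. Vamp5, first described in muscle, was 6.02-fold lower. Vamp8 (endobrevin), of late endosomes and secretory granules outside neurons, was at least 8.91-fold lower, with no IP array above the limit. Vamp7, of late endosomes and lysosomes, sat at the threshold with a log2 change of -1.0 ± 0.22 SE, and its call was lost without IP replicate 1, unbound replicate 1 or unbound replicate 3. Vamp4, of the trans-Golgi network, had overlapping groups at 12.24 in IP and 12.17 unbound.

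**Figure D3:**
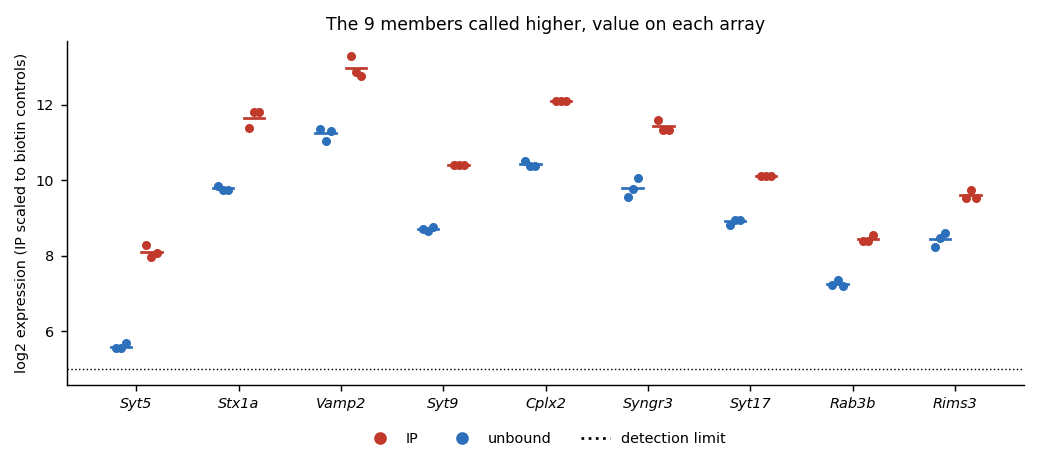
Log2 expression on each of the 3 IP arrays (red points) and 3 unbound arrays (blue points) for the 9 genes called higher, with group means as short lines and the detection limit of 5 dotted. In all 9 the red and blue points do not overlap, and only Syt5 comes near the limit, at 5.55 on its lowest unbound arrays; the 3 red points of Cplx2, Syt9 and Syt17 coincide because the deposited IP values are identical.

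Of the target SNAREs, 1 of 15 tested genes was higher, 3 were lower and 11 were not called. That is 6.67% higher and 20% lower, beside 10.4% and 41.1% of all tested genes. Stx1a encodes the syntaxin that pairs with SNAP-25 at the presynaptic membrane. It read 11.37, 11.80 and 11.80 in IP and 9.85, 9.75 and 9.75 in unbound RNA, without overlap (3.68-fold higher, log2 change 1.88 ± 0.14 SE, adjusted p = 4.23e-05). Its brightest probe set is of a type that can bind related transcripts, and the other one, at 7.80 in IP and 5.17 unbound, rose by 2.62. The brightest probe sets of Vamp3, Snap47, Stx6, Stx18 and Rab3a are of that type too. Snap25, the partner of Stx1a in the same complex, was abundant in both fractions, with 14.40, 14.02 and 13.98 in IP and 14.89, 14.49 and 14.74 in unbound RNA. Its IP values were the lower ones on every array, by 1.49-fold (adjusted p = 0.0170), under the 2-fold limit, and the sign turned with both median scalings. Snap47, a relative of Snap25 on internal membranes, was at 14.88 in IP and 14.66 unbound and was not called.

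The 3 lower target SNAREs are known mainly from outside the synaptic vesicle cycle. Snap29, a widely expressed SNAP-25 relative used in autophagosome fusion, was at least 4.28-fold lower, and Stx17, the autophagosomal syntaxin, was 3.86-fold lower (7.70 in IP and 9.65 unbound). Stx2, a plasma membrane syntaxin, was at least 4.98-fold lower. The other syntaxins stayed within the 2-fold limit by their brightest probe set. Stx5a (-0.10), Stx6 (-0.28) and Stx12 (-0.09) had overlapping groups. Stx7 (0.46) and Stx8 (0.49), endosomal partners, lay above unbound RNA on every array. Stx7 and Stx8 were called higher with the medians of expressed (1.20 and 1.23) and all (1.49 and 1.52) probe sets. Stx16 (-0.77), Stx4a (-0.48), Stx3 (-0.88) and Stx18 (-1.0) lay below it on every array. Stx18 missed the call by a small margin, at just under 2-fold, and was called lower without unbound replicate 2, as was Stx3. Another Stx3 probe set was called lower at -3.49. Of the other Stx18 probe sets, those at -2.01 and -1.19 were called lower, each with 1 of 3 IP arrays at the limit. Those at -0.83 and -0.23 were not called. Stx3 and Stx18 were both called lower by the mean of their probe sets. Stx11 and Stx19 were below the limit on every array.

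The promoter of Stx1a was searched, like those of all members, for 4 short motifs on both strands in the 250 bases before each annotated start (RefSeq, GRCm38.p6): the CRE TGACGTCA, the ETS motif CCGGAAGT, the GATA motif AGATAA and the RE1 core TTCAGCACC. Gata2 and Gata3 encode factors of serotonin neurons that bind GATA motifs, and REST, which binds RE1, keeps neuronal genes silent in other cells. The table held 64 of the 84 genes, and 5 of the 9 higher ones. The GATA motif was found in 1 of these 5 (Stx1a), in 2 of 25 lower members (Rph3a and Sv2b), and in 1 of 23 uncalled members (Syt1). That is 6.25% of the 64 members, beside 11.4% of all 27025 genes in the table. The ETS motif was in 0 of the 64, beside 3.23% of all genes. The CRE was in Stxbp3 and Syn1 (1.77% of all genes) and the RE1 core in Syn1 alone (0.348%). The stretches of Stx1a (chr5:135023232-135023288, plus strand, with the motif starting 229 bases before the start) and Syn1 (chrX:20921040-20921168, minus strand, with RE1 core and CRE starting 232 and 159 bases before it) are shown because they hold these matches, in capitals, in a higher member and in a widely used neuronal promoter.
Stx1a: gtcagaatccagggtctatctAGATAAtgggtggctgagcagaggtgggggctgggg
Syn1: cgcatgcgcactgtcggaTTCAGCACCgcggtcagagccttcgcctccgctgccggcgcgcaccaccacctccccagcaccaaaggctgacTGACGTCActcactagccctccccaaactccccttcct
A match describes these letters only, and no binding was measured.

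Of 10 tested SNARE regulators, Cplx2 rose (10%) and 5 fell (50%), beside 10.4% and 41.1% of all tested genes. Complexins clamp the assembled SNARE complex and then help it fuse on calcium. Cplx2 had the same deposited value on each IP array, 12.09 after scaling, against 10.50, 10.38 and 10.38 in unbound RNA (3.18-fold higher, adjusted p = 4.92e-06). Another of its probe sets rose by 1.47, and the third, with a change of 0.94 ± 1.17 SE, was not called. Cplx1, its paralogue of fast synapses, was brighter on every unbound array, with 13.75, 14.06 and 13.94 in IP and 14.61, 14.70 and 14.75 in unbound RNA. That change of -0.77 was not called, and its 2 other probe sets were called lower (-1.04 and -2.26). The 100 bases before the start of each are shown for this pair that changed unequally, with each CpG in capitals: Cplx2 (chr13:54302456-54302555, plus strand) has 3 and Cplx1 (chr5:108550028-108550127, minus strand) has 10.
Cplx2: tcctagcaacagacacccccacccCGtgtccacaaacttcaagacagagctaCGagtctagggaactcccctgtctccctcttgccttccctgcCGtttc
Cplx1: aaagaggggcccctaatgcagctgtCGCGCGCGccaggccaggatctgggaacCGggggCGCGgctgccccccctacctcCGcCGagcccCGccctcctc
Over 250 bases the median CpG count was 7 in the 5 higher members with a promoter entry and 16 in the 25 lower and in the 23 uncalled ones. It was 6 over all genes in the table. The range within the higher members was 6 to 40, so the sets overlap widely.

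Nsf, whose ATPase recycles SNARE complexes, read 11.80, 11.18 and 11.11 in IP and 13.46, 13.09 and 13.51 in unbound RNA, a 3.97-fold decrease (adjusted p = 2.65e-04), and a second probe set fell by 1.73. By their brightest probe sets its adaptors did not follow to the same extent: Napa was at -0.17, Napb at -0.56 and Napg at -0.70, none of them called. Another Napb probe set was called lower at -1.24, and its remaining tested ones, between -0.99 and -0.63, were not called. The second tested probe sets of Napa and Napg read 0.46 and -0.13. Among the syntaxin-binding genes, Stxbp3 (Munc18c), which serves syntaxin 4 in many tissues, was 20.2-fold lower, at 5.94 on every IP array and 10.27 ± 0.37 (SD, n = 3) unbound. Stxbp5 (tomosyn) and Stxbp6 (amisyn) encode inhibitors that occupy syntaxin in place of a VAMP. They fell 4.99-fold and 4.44-fold. Stxbp4 was at least 2.39-fold lower, and Stxbp2, Cplx3 and Cplx4 were below the limit.

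Of the calcium sensors, 3 of 15 tested genes were higher and 5 lower (20% and 33.3%), beside 10.4% and 41.1% of all tested genes. Their median log2 change was 0.18, against -0.65 for all tested genes. Syt5, a sensor reported on dense-core vesicles, rose most of all members: 8.28, 7.96 and 8.06 in IP and 5.55, 5.55 and 5.68 in unbound RNA (5.67-fold, log2 change 2.50 ± 0.11 SE, adjusted p = 4.37e-06). Syt9, a fast sensor related to Syt1 and Syt2, was 10.39 on every IP array and 8.70, 8.65 and 8.75 in unbound RNA (3.22-fold higher, adjusted p = 3.86e-06). Syt17, an atypical synaptotagmin not thought to bind calcium, was 10.12 on each IP array and 8.91 ± 0.07 (SD, n = 3) unbound, 2.32-fold higher, and its second probe set, at 3.06 on every unbound array and thus below the limit, was at least 1.38-fold higher. All 3 stood clear of the unbound arrays.

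Of the classical fast sensors, Syt1 and Syt2 parted widely. Syt1 read 13.08, 13.20 and 13.40 in IP and 12.27, 12.16 and 12.30 in unbound RNA. Its change of 0.98 ± 0.11 SE (adjusted p = 2.35e-04) fell just short of 2-fold. It was called higher without scaling, with both median scalings, with the mean of its probe sets and without IP replicate 1 or unbound replicate 3, and both its other tested probe sets were called higher. One rose by 2.03, with 1 of 3 unbound arrays at the limit, and the other, with none, was at least 3.54-fold higher. Syt2, the fast sensor of brainstem and spinal synapses, read 6.99, 7.51 and 7.24 in IP and 11.09, 11.03 and 11.15 in unbound RNA. That 14.4-fold difference (adjusted p = 2.50e-06) was the largest decrease among members measured in both groups after Stxbp3. Syt7, the slow high-affinity sensor, was 4.62-fold lower (9.96 ± 0.44 in IP and 12.17 ± 0.04 unbound, SD, n = 3), with 2 further probe sets at -3.62 and -2.52. Doc2b, a high-affinity sensor of spontaneous release, was 4.06-fold lower, and its relative Doc2a was at -0.80 and not called. Syt14 was 2.28-fold lower and Syt12 at least 1.43-fold lower. Syt4 (0.18) and Syt11 (-0.81), which lack calcium binding in a C2 domain, and Syt13 (0.56), Syt16 (0.97) and Doc2g (0.22) were not called. Quantile normalisation and both median scalings called Syt13 and Syt16 higher, and Syt16 was also called without scaling (1.21) and without unbound replicate 1. Doc2g was called higher with quantile normalisation (1.62) and with the median of all probe sets (1.25). Syt3, Syt6, Syt8 and Syt10 were below the limit.

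Genes of the vesicle membrane showed 1 increase and 6 decreases among 11 tested (9.09% and 54.5%), beside 10.4% and 41.1% of all tested genes. Syngr3, a synaptogyrin that binds the dopamine transporter, read 11.59, 11.34 and 11.34 in IP and 9.55, 9.76 and 10.07 in unbound RNA (3.08-fold higher, adjusted p = 1.36e-04), and its second probe set, below the limit on every unbound array, was at least 3.54-fold higher. Syngr1, its more widespread relative, was higher on every IP array by 0.77, which stayed under 2-fold, and its other tested probe set rose by 2.04. Syngr1 was called higher without scaling (1.00), with quantile normalisation (1.07) and with the medians of expressed (1.51) and all (1.80) probe sets. Syngr2, common outside the nervous system, was 2.41-fold lower. The call for Syngr2 was lost without unbound replicate 3. Syp, synaptophysin, the standard vesicle marker, overlapped between groups (12.08, 11.90 and 11.90 in IP and 11.65, 11.66 and 12.00 unbound). Its relative Synpr was 2.97-fold lower, with the widest IP spread of any tested member at 7.64 ± 0.59 (SD, n = 3). Sv2a, present on nearly all vesicles, was at -0.34 and not called, Sv2b was 2.40-fold lower, and Sv2c was below the limit in both groups at 3.59 and 3.32.

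The synapsins, which tie vesicles into the reserve pool, were all dimmer in IP. Syn1 read 7.77, 7.57 and 7.72 in IP and 8.15, 8.38 and 8.88 in unbound RNA, a change of -0.79 that was not called. Syn2 was 3.42-fold lower by its brightest probe set (10.42 ± 0.27 and 12.19 ± 0.08, SD, n = 3). Its other probe sets read -1.25, -0.02 and 0.27, so its probe sets disagree. Syn3 was 7.90-fold lower, at 5.99 in IP and 8.97 unbound. Snap91, which encodes the clathrin adaptor AP180, was 2.09-fold lower, and its call was lost without unbound replicate 1.

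Of the priming and active-zone genes, 9 of 12 were lower and 2 higher, beside 41.1% and 10.4% of all tested genes. The 9 fell to 5 with quantile normalisation and to 3 with the median of expressed probe sets. Unc13c encodes Munc13-3, best known in the cerebellum, which was not part of the tissue. It read 8.06, 8.17 and 8.08 in IP and 12.15, 11.75 and 11.68 in unbound RNA, a 13.5-fold decrease (adjusted p = 2.62e-06). Unc13b (Munc13-2) was at least 2.37-fold lower, and Unc13a (Munc13-1), the main priming factor, lay below the limit on every array, at 2.21 in IP and 4.35 unbound. No Unc13 gene was therefore measured above the limit in both groups other than Unc13c. Among RIM genes, Rims1 and Rims2, the large scaffolds, were 2.18-fold and 2.10-fold lower, while Rims3, a short form, read 9.53, 9.74 and 9.53 in IP and 8.22, 8.48 and 8.60 in unbound RNA (2.24-fold higher, adjusted p = 2.66e-04). A second Rims3 probe set, below the limit in unbound RNA at 4.47, was at 7.67 in IP, at least 6.36-fold higher. Rims4, the other short form, was 2.42-fold lower. The calls for Rims1, Rims2 and Rims4 were lost with quantile normalisation and both median scalings, and that for Rims2 without IP replicate 1 or unbound replicate 1.

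The Rab3 GTPases, which mark vesicles for docking, also divided. Rab3b rose 2.27-fold, with 8.39, 8.38 and 8.54 in IP and 7.22, 7.35 and 7.19 in unbound RNA (adjusted p = 4.46e-05). Rab3a, the main neuronal form, overlapped by its brightest probe set at 13.29 ± 0.05 in IP and 13.50 ± 0.20 unbound (SD, n = 3). The other Rab3a probe set lay above unbound RNA on every array, by 0.82, and was not called. Rab3c fell 3.22-fold by its brightest probe set, but its 3 other tested probe sets read 0.70, 0.36 and -0.03. Rab3d was below the limit. In Syt9, which was higher, the last 100 bases before the start hold 18 CpG, and in Syt2, which was lower, 19. The higher gene held the lower count here too, but these counts are close. Whether the number of CpG goes with the change was not tested. Upstream of the Rab3b start (chr4:108878970-108879069, plus strand) the last 100 bases hold 5 CpG, and those of Rab3a (chr8:70754603-70754702, plus strand) hold 8, shown in capitals for comparison of the pair.
Rab3b: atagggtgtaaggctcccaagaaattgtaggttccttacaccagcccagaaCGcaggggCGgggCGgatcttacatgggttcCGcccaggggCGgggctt
Rab3a: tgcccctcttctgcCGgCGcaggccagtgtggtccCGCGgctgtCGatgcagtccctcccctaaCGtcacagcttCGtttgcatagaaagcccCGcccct
Rph3a, rabphilin, which binds active Rab3, was 5.25-fold lower, at 7.82 on every IP array and 10.21 ± 0.20 (SD, n = 3) unbound. Cadps, the priming factor of dense-core vesicles known as CAPS1, read 11.31, 10.70 and 10.60 in IP and 12.61, 11.98 and 12.20 in unbound RNA, a 2.63-fold decrease (adjusted p = 0.00226). Its paralogue Cadps2 was 8.06-fold lower. Thus both CAPS genes were lower, Cadps2 by the larger factor.

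A direct comparison of paralogues does not depend on a uniform shift between the groups, because it uses the difference of 2 genes within each array. It shows unequal change, not which gene is more abundant. Of 15 pairs with both genes tested, 13 had IP differences that did not overlap the unbound ones (exact permutation test, two-sided, p = 0.10, the smallest possible, and 0.115 after Benjamini-Hochberg adjustment over the 15). This test cannot pass 0.05 with 3 arrays against 3. Over every pair of tested genes, 81.9% separated in this way, so the count of 13 lies near the background, and what follows gives the sizes of the shifts. Syt1 minus Syt2 went from 1.15 ± 0.03 in unbound RNA to 5.98 ± 0.25 in IP (SD, n = 3), a shift of 4.83 toward Syt1. Vamp1 minus Vamp2 changed sign, from 1.38 ± 0.29 in unbound RNA to -1.46 ± 0.16 in IP, a shift of -2.84 (toward Vamp2). Cplx1 minus Cplx2 went from 4.27 ± 0.14 to 1.83 ± 0.16, a shift toward Cplx2.

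Smaller shifts ran toward Syt1 over Syt11 (1.79) and Syt4 (0.80), Syp over Synpr (1.76), Cadps over Cadps2 (1.62), Rab3a over Rab3c (1.47) and Doc2a over Doc2b (1.22). They also ran toward Syn1 over Syn2 (0.99) and Sv2a over Sv2b (0.92), and toward Rab3b over Rab3a and Syngr3 over Syngr1 (-1.39 and -0.85 as first minus second). The Syn1 and Syn2 shift turned to -0.18 when each gene was read by the mean of its probe sets. That reading also moved Doc2a and Doc2b to 0.39, Rab3a and Rab3c to 0.48, Rab3a and Rab3b to -0.88 and Syngr1 and Syngr3 to -1.37. Quantile normalisation moved Sv2a and Sv2b to 0.27, Syt1 and Syt4 to 0.37, Syn1 and Syn2 to 1.59, Syp and Synpr to 1.09 and Rab3a and Rab3b to -2.48. By their brightest probe sets and the biotin scaling, Rims1 and Rims2 did not separate, with a shift of -0.05 (p = 0.800, exact permutation test). Their differences were 0.04 ± 0.15 in IP and 0.09 ± 0.08 unbound (SD). Napa and Napb did not separate either, at 0.38 (p = 0.300, exact permutation test). These 2 results depend on the reading. By the mean of probe sets both pairs separated, at -0.50 for Rims1 and Rims2 and 0.83 for Napa and Napb. Quantile normalisation also separated Napa and Napb (0.79), but not Rims1 and Rims2 (-0.06).

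**Figure D4:**
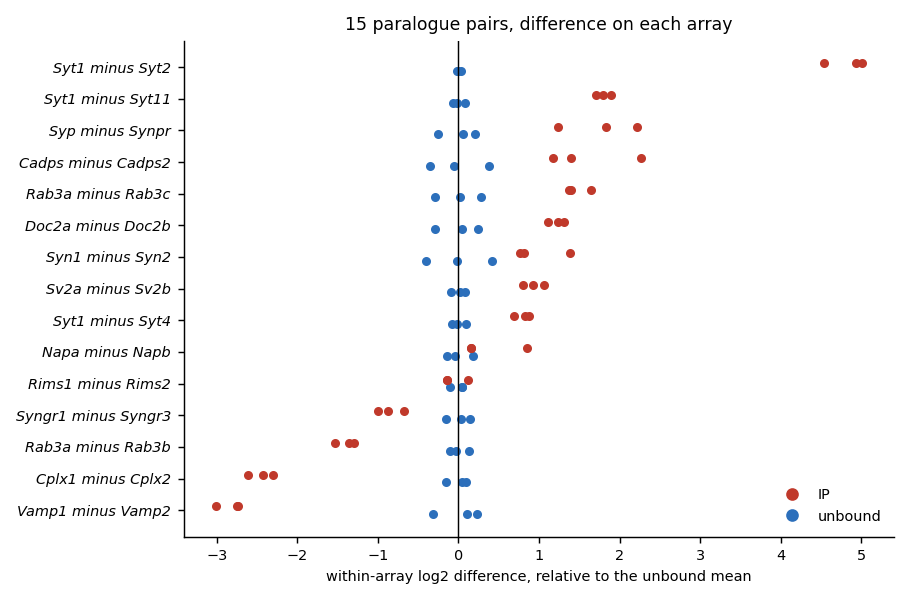
Within-array difference in log2 expression between the 2 genes of 15 paralogue pairs on the 3 IP arrays (red points) and 3 unbound arrays (blue points), each set relative to the unbound mean of the pair. The points of Syt1 minus Syt2 lie farthest to the right, at a mean of 4.83, and those of Vamp1 minus Vamp2 farthest to the left, while the points of Rims1 minus Rims2 and Napa minus Napb overlap.

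The rule selects probe sets, so each was also tested by itself. Of the 195, 135 were tested, 18 were higher and 59 lower, beside 10.4% and 43.0% of all 16835 probe sets tested in this way. Probe sets of a gene share its transcript and are not independent. For the 9 higher genes, 6 of the 7 other tested probe sets were called higher. Of these 6, those of Rims3, Syngr3 and Syt17 were below the limit on every unbound array, so they could pass the filter only by being higher in IP. The 3 that reached the limit in both groups belonged to Vamp2, Stx1a and Cplx2. Among 42 members with over 1 tested probe set, 8 had probe sets of opposite sign (Napa, Rab3a, Rab3c, Stx12, Stx6, Syn2, Syt11 and Vamp4), and 0 had calls in opposite directions. Vamp4 spanned the call line, with probe sets at -1.01, 0.07 and 0.88. For Rab3a the second probe set read 0.82, against -0.21 for the brightest.

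**Figure D5:**
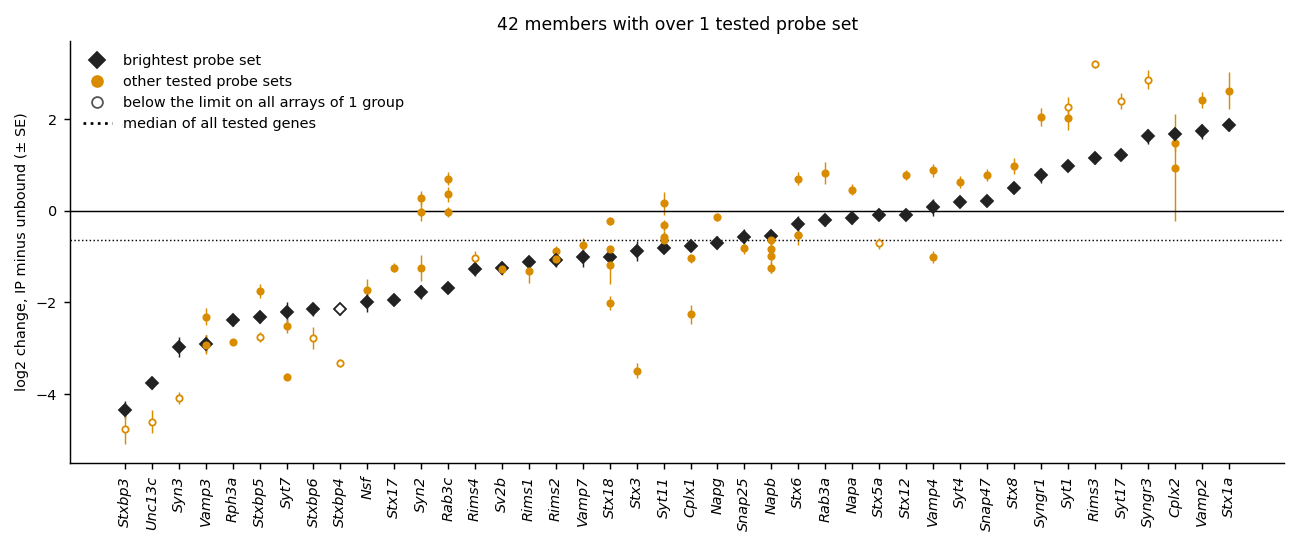
Log2 change (IP minus unbound, with the standard error as bars) of every tested probe set of the 42 members with over 1, ordered by the brightest probe set (black diamonds), with the others in orange, open points for probe sets with a whole group below the limit, and the median of all tested genes dotted. The filled orange points of Vamp2 and Stx1a lie above the black ones, the orange points of Rims3, Syngr3 and Syt17 are open, and those of Rab3c and Syn2 spread across 0.

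Other presynaptic genes were listed as partners of this machinery. Of 58 on the array 54 were tested, with 6 higher (11.1%), 28 lower (51.9%) and a median of -1.08. The shares over all tested genes were 10.4% and 41.1%, with a median of -0.65, so these counts too lay near the background, and 7 of the 54 were below the limit on every IP array. Of the active-zone partners 12 of 21 were lower and 2 higher, and of the endocytic ones 11 of 19 and 1. Pclo (piccolo), a giant active-zone scaffold, fell 8.27-fold from 8.85 to 5.80, and its relative Bsn (bassoon) was at least 5.36-fold lower. Snap23, the SNAP-25 relative of non-neuronal cells, was at least 4.70-fold lower and Sh3gl1 at least 1.78-fold. Rimbp2, which links RIM to calcium channels, and Lin7b, a scaffold subunit, were higher (3.27-fold and 2.33-fold). The Lin7b paralogues Lin7a and Lin7c were 3.57-fold and 2.46-fold lower. Of the clathrin machinery, Ap2s1, the small subunit of the AP-2 adaptor, was 6.41-fold higher, while the heavy chain Cltc was 4.22-fold lower. Of the other AP-2 subunits, Ap2b1 was 2.83-fold lower, and Ap2m1 (0.08), Ap2a1 (0.11) and Ap2a2 (0.16) had overlapping groups.

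Vesicle proteins outside the rule included transmitter transporters, which also belong to the marker lists used above to check the purification. Slc18a2, the vesicular monoamine transporter, read 14.03, 13.40 and 13.50 in IP and 7.96, 7.83 and 7.72 in unbound RNA (55.8-fold higher, adjusted p = 1.43e-06). The vesicular transporters of glutamate and of GABA and glycine, Slc17a6 and Slc32a1, were 11.1-fold and 4.01-fold lower. Sncg (gamma-synuclein) rose 9.06-fold, from 10.72 ± 0.09 to 13.90 ± 0.52 (SD, n = 3), and Svop, a vesicle protein related to SV2, 3.45-fold. Sncb, Scamp1, Scamp5, Dnajc5 and Sgta had overlapping groups, with changes between -0.13 and 0.07.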

How the data were processed

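RNA from 3 IP and 3 unbound samples, made from 20 ng of total RNA by two-cycle amplification, was read on Affymetrix mouse arrays. The deposited log2 values were made by the authors with GCRMA, run on one group's replicates at a time, per the series' design text, its version not given in the sources used here. So the files do not fix how the groups' levels compare. Of IP probe sets averaging 5 or above, 15.8% carry one value on all 3 arrays (0.481% in unbound RNA), which sets their SD to 0. Among tested members 13 did so. As the design text recommends, -0.23 was added to IP values, the mean difference over 18 biotinylated controls.

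Probe sets were named from the platform annotation, and those with several symbols or none were left out. Fits across all genes used limma 3.58.1 (R 4.3.3), group only, two-sided, with Benjamini-Hochberg adjustment over 10581 genes. Folds given as at least a value count each array at no less than the limit of 5. On simulated data with 10581 genes, 85% of changes of 1.5 (log2) and 99% of changes of 3 were recovered. The simulation used normal noise with the same SD in both groups and changed 100 genes at each size. It held no shift between the groups, no identical values and far fewer changed genes than were called here. It therefore cannot speak for the scaling. The labels call IP samples biological replicates, and the number of arrays limits precision. Unbound samples are labelled by the replicate they came from, so same-numbered samples could be taken as pairs. The main fit and the permutation tests did not use these pairs. They entered only an alternative that added them to the fit as a block. Deviations of same-numbered samples correlated at 0.27, 0.16 and 0.10, and IP replicate 3 was closer to unbound replicate 2 (0.21).

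The genes, lists and pairs were chosen with earlier results of these data known. Named were the core machinery, up to 3 called genes in each direction per role and among partners, the 3 pairs with the largest shift, and the marker checks. Other members were added to complete each role. Alternatives were 6 scalings, 2 filters, 2 ways of reading probe sets, the pairs as a block, no fold limit, leaving out identical values, and leaving out each sample.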

Additional observations from a re-analysis of the deposited data

How the results depend on the processing

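Each of the 9 higher members was called higher under every alternative that read it by gene, except the poly-A scaling. Leaving out identical values removed Cplx2, Syt9 and Syt17 from the test. Members higher and lower numbered 9 and 33 with the replicate block on the pairs, 9 and 33 with biotin controls applied per array, and 16 higher without a fold limit; the block changed 0 calls of 81 genes named. Quantile normalisation gave 14 higher, the median of expressed probe sets 15 higher and 20 lower, the median of all probe sets 20 and 15, the poly-A controls 0 and 66, and every probe set by itself 18 and 59. For partner genes lower calls were 15 under quantile normalisation, and higher and lower calls were 13 and 16 with expressed medians, 19 and 13 with medians of all probe sets, 1 and 49 with poly-A controls and 11 and 53 by probe set, and 11 were higher without a fold limit. The members' median log2 change of -0.84 became -0.61 without scaling, -0.37, -0.10, 0.22 and -3.52 under quantile, expressed-median, all-median and poly-A scalings, and -0.70 with the mean of probe sets. Against the median of all tested genes it was -0.42 under quantile normalisation, -0.52 without a filter, -0.09 by probe set and -0.28 without identical values. Leaving out 1 sample at a time gave 9 to 10 higher and 30 to 35 lower members, 6 to 6 higher and 27 to 29 lower partners, medians of -0.98 to -0.82, and differences from all genes of -0.29 to -0.18.

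Of 1527 values of single genes and pairs under alternatives, 1333 kept direction and call, 61 lost the call, 70 gained it and 63 changed sign; no called gene changed sign outside the poly-A and all-median scalings. The log2 changes that turned with the median of all probe sets were Cplx1 0.26, Doc2a 0.23, Napa 0.86, Napb 0.47, Napg 0.33, Rab3a 0.82, Snap25 0.46, Stx12 0.94, Stx16 0.26, Stx18 0.03, Stx3 0.15, Stx4a 0.55, Stx5a 0.93, Stx6 0.75, Sv2a 0.69, Syn1 0.24, Syt11 0.22 and Vamp7 0.03. With the median of expressed probe sets they were Napa 0.57, Napb 0.19, Napg 0.05, Rab3a 0.53, Snap25 0.17, Stx12 0.65, Stx4a 0.27, Stx5a 0.64, Stx6 0.46 and Sv2a 0.40. Without scaling they were Napa 0.06, Rab3a 0.02, Stx12 0.14 and Stx5a 0.13, and under quantile normalisation Napa 0.12, Snap47 -0.16, Stx12 0.05 and Stx5a 0.27. With the mean of probe sets they were Napa 0.14, Rab3a 0.30, Stx12 0.34 and Vamp4 -0.02, and the Syn1 and Syn2 pair was at -0.18. Without IP replicate 1 Vamp4 was at -0.04 and without unbound replicate 2 at -0.08. Under the poly-A controls they were Cplx2 -1.01, Doc2g -2.46, Rab3b -1.50, Rims3 -1.51, Snap47 -2.46, Stx1a -0.80, Stx7 -2.22, Stx8 -2.19, Syngr1 -1.91, Syngr3 -1.05, Syp -2.49, Syt1 -1.69, Syt13 -2.12, Syt16 -1.70, Syt17 -1.46, Syt4 -2.50, Syt5 -0.17, Syt9 -0.99, Vamp2 -0.95 and Vamp4 -2.61. All scalings other than quantile normalisation add a shift to whole arrays by construction. Quantile normalisation moved genes unequally (Doc2g from 0.22 to 1.62, Cplx1 from -0.77 to -1.13), and the cause was not tested. Signals below the detection limit limit what can be said of Unc13a, Sv2c and the other untested members.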

Other observations

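Genomic span was not used to choose the members. Its median was 41.8 kb for the 9 higher genes, 115 kb for the 33 lower ones and 30.4 kb for the 28 not called (RefSeq, GRCm38.p6). Across the 70 tested members the Spearman correlation of span with log2 change was -0.25, and across 10549 tested genes with a span it was -0.33. Genes are not independent replicates, and the points share the 6 arrays, so these are descriptions. Syt9 was the longest member called higher, so a cut at its length leaves no higher member above it. Tested members longer than Syt9 and called lower were Cadps2, Unc13c, Rims1, Rims2, Cadps, Syn3, Synpr, Rab3c, Stxbp6, Unc13b and Sv2b. Several of these calls were lost under other scalings, as given above. The others of that length, Syt1 (0.98), Syt16 (0.97) and Stx8 (0.49), were not called. Among tested members no longer than Syt5, Vamp2, Syngr3 and Syt5 were higher and Syngr2, Vamp8 and Vamp1 lower. Doc2g, Rab3a and Doc2a, also that short, were not called. The shares of all tested genes of these lengths that were called higher or lower were not computed.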
